A study of Mus musculus with 11 samples.

Results

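The genes that code for axon guidance ligands and receptors were followed in chromatin accessibility tables of old and young mouse haematopoietic stem cells (HSCs), the cells of the bone marrow that give rise to all blood lineages. Members were every peak assigned to a gene whose symbol names an Eph receptor, an ephrin, a semaphorin, a plexin, the neuropilins Nrp1 and Nrp2, Slit1 to Slit3, Robo1 to Robo3, the netrins Ntn1 and Ntn4, Dcc, or Unc5a to Unc5d. The rule found 503 of 94410 peaks, at 67 genes. They comprised 69 peaks at 14 Eph receptor genes, 82 at 8 ephrin genes, 150 at 20 semaphorin genes, 107 at 12 plexin and neuropilin genes, 63 at 6 Slit and Robo genes and 32 at 7 genes of netrins and their receptors. The plexin symbol rule also took in Plxna4os1, a non-coding antisense symbol, with 8 peaks. The rule reads symbols, but the families were selected on sight of the deposited log2 changes and adjusted p-values of these comparisons, among them those at the Epha6 promoter. The values that follow are therefore a description of these genes and no independent evidence for a direction.

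The assay was ATAC-seq, which uses a transposase to cut open chromatin and tag the cut ends with sequencing adapters. All mice were of the genotype Gfplc3/Gfplc3, so every group carried the GFP-tagged LC3 reporter of autophagosomes, and HSCs were isolated at steady state. The groups were 3 libraries of old AThi HSCs, the GFP-low fraction that the labels assign to engaged autophagy, 3 of old ATlo HSCs, the GFP-high fraction, and 5 of young HSCs that were not fractionated. Each old AThi library was paired by its label with an old ATlo library. Old and young HSCs thus differed in age group and in sorting by GFP, and isolation and transposition were spread over 2 days of which the sources used here give no assignment to libraries, so these factors cannot be told apart in the comparisons with young. Ages in numbers and the number of animals behind a library were not given either, so a p-value reflects the spread among libraries, which may be technical. The tables set old AThi against young, old ATlo against young and old AThi against old ATlo HSCs.

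Ephrins are ligands held on the cell surface, and Eph receptors are the receptor tyrosine kinases that bind them, so signalling needs contact between cells and can run in both directions. Semaphorins are secreted or membrane-bound ligands of plexins, with neuropilins as co-receptors for most of the secreted ones. Slits are secreted ligands of Robo receptors, and netrins bind Dcc, mostly for attraction, and Unc5 receptors, mostly for repulsion. The families were found as guides of growing axons and also act in blood vessel growth, in immune cells and in the adhesion and movement of cells in bone marrow.

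The promoters with large differences and a defined RefSeq window can be read directly. Each line gives the 250 bases before the RefSeq start of the gene, 5′ to 3′ in the direction of the gene, from the RefSeq promoter table (GRCm38.p6). Capitals mark letters that match any of 7 short motifs on either strand, which are spelled out after the sequences, and abutting or overlapping matches run together. Epha6, Epha8, Slit3 and Ntn4 had promoters called higher in both old fractions, and Epha5 is shown for contrast because its promoter had the highest level of the Eph receptor promoters and was not called.
Epha6, chr16:60605532-60605781, minus strand: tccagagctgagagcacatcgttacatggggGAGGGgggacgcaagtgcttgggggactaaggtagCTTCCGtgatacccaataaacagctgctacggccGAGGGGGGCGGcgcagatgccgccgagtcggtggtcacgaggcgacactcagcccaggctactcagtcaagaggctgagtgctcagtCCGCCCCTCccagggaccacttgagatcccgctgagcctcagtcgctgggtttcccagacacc
Epha8, chr4:136956817-136957066, minus strand: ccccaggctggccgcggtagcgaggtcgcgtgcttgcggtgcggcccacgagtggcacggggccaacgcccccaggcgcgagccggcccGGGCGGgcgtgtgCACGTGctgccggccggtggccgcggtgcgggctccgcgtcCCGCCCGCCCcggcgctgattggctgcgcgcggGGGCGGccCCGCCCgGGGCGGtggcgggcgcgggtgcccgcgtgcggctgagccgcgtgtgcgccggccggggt
Slit3, chr11:35121206-35121455, plus strand: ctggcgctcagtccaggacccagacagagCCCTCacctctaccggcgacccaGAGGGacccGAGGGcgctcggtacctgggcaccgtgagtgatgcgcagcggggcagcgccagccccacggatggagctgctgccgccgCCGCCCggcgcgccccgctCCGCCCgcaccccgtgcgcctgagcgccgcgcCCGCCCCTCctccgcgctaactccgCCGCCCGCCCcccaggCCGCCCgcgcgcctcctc
Ntn4, chr10:93640799-93641048, plus strand: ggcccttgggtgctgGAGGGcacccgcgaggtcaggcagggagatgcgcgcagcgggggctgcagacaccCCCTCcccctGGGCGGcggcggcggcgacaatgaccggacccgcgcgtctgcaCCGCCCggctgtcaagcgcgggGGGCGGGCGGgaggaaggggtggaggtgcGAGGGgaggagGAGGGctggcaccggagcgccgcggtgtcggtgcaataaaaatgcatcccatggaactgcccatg
Epha5, chr5:84417383-84417632, minus strand: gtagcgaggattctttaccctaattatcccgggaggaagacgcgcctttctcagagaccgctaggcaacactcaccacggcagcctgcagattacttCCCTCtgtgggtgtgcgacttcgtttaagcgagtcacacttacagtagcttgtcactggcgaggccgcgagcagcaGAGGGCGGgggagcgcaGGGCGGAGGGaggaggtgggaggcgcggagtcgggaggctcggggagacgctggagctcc
The peaks are on another build, taken as mm39, and no coordinate was converted. On that build the peaks of Epha6, Ntn4 and Epha5 covered all 250 bases before the start site of the deposited annotation, that of Slit3 covered 189 and that of Epha8 covered 99. Whether the RefSeq start and the annotated start of a gene are the same base was not tested.

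These windows were rich in G and C. The GC content was 62.8% for Epha6, 84.0% for Epha8, 78.8% for Slit3, 73.2% for Ntn4 and 62.4% for Epha5. SP/KLF letters occurred 2 times in the Epha6 window, 6 times in that of Epha8, 6 times in that of Slit3, 4 times in that of Ntn4 and 2 times in that of Epha5. SP/KLF stands for GGGCGG, the box bound by factors of the SP and KLF families. The ETS letters, CGGAAG, were found in the Epha6 window alone, with 1 match, and in 13.6% of all windows of the table. An E-box, CACGTG, was found in the Epha8 window alone, again with 1 match, and in 6.02% of all windows. The CTCF core, searched as CCCTC, is short and common, with matches in 60.5% of all windows and in each of the 5 but that of Epha8, and where it overlaps the SP/KLF letters both were counted. None of the 5 windows held the RUNX letters, TGTGGT, which 14.0% of all windows hold. The same was true of the AP-1 letters, TGANTCA, at 6.75% of all windows, and of the GATA letters, for which AGATAA was searched and found in 9.99%. Over the 72 windows that RefSeq gives for 56 of the guidance genes, the median GC content was 64.4% and 72.2% held the SP/KLF letters, against 52.4% GC and 32.7% of windows with SP/KLF over all 32851 windows of the table. All windows cover 27025 genes, whereas 15005 genes had a peak within 1 kb of the start here. Of the 67 guidance genes 66 had such a peak, so the sets differ in this as well. Of the 11 genes with a promoter called higher in an old fraction, 8 had a RefSeq window. Their 9 windows all held the SP/KLF letters, and 68.3% of the 63 windows of the other guidance genes did. The 9 windows were also richer in G and C, with a median of 69.2% against 64.4% for the 63, and GC-rich letters are more frequent in such windows. A match is a run of letters in the window and no measurement of binding.

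All 67 genes had at least 1 peak and 66 had a promoter peak, defined as a peak within 1 kb of the assigned start site. The exception was Sema3b. The median was 5 peaks per gene, against 3 over all genes, and the largest number was 26, at Efna5. Of the 503 peaks, 101 (20.1%) were promoter peaks, 37 (7.36%) lay 1 to 3 kb from the start, 184 (36.6%) lay in introns and 156 (31.0%) were distal intergenic. Over all peaks these shares were 19.2%, 5.07%, 33.6% and 35.7%. The mean normalised count of a peak, the authors' mean over libraries, had a median of 27.4 over guidance peaks and 27.5 over all peaks. Guidance promoters were less accessible, with a median of 79.4 per kb of peak, against 117 per kb over all promoter peaks. Gene names at peaks rest on the nearest start site, and 27 of the guidance peaks lay over another gene.

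The authors' deposited tables hold no value per library. Levels in each group are therefore given as implied counts, the 3 group means that fit the authors' mean over libraries together with both log2 changes against young HSCs. They carry no replicate spread, which enters through the standard error (SE) of each log2 change. A peak is called, and said to have risen or fallen, at an adjusted p under 0.05 in the authors' own comparison over all peaks. In such bulk libraries a larger share of cells with an open site and a more open site in each cell cannot be told apart.

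In old AThi HSCs, 62 of the 497 guidance peaks with an adjusted p were called against young HSCs (12.5%, beside 10.3% of all peaks), and 51 rose while 11 fell. These are 10.3% higher and 2.21% lower, beside 7.57% higher and 2.74% lower over all peaks. In old ATlo HSCs, 57 were called (11.5%, beside 9.42%), of which 53 rose and 4 fell, or 10.7% and 0.805%, beside 6.88% and 2.54% over all peaks. No test of the list was made, and the shares are set side by side as a description. Both comparisons use the same young libraries, so their calls are not independent of each other. A rise of at least 2-fold was called at 35 guidance peaks in old AThi HSCs and 34 in old ATlo HSCs (7.04% and 6.84%, beside 4.99% and 4.49% of all peaks). A fall of that size was called at 8 in old AThi HSCs and 2 in old ATlo HSCs (1.61% and 0.402%, beside 1.11% and 0.572%). Counted by gene, 28 of 67 guidance genes (41.8%) had a higher peak in old AThi HSCs, beside 23.9% of all genes, and 31 (46.3%) in old ATlo HSCs, beside 21.9%. A lower peak was called at 10 genes (14.9%) in old AThi HSCs, beside 10.6%, and at 4 (5.97%) in old ATlo HSCs, beside 10.1%. Genes with more peaks have more chances of a call, and guidance genes had more peaks than the median gene. In 28 of the 67 genes no peak was called in either comparison.

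The median log2 change over guidance peaks was 0.055 in old AThi HSCs, against -0.04 over all peaks, and 0.11 in old ATlo HSCs, against -0.03, in the authors' deposited tables. The median SE of a guidance peak was 0.33 for old AThi and 0.32 for old ATlo. The larger differences were those of a minority of members. The called rises had log2 values of 0.55 to 2.90 (median 1.32) in old AThi HSCs and 0.43 to 2.66 (median 1.24) in old ATlo HSCs in the authors' deposited tables. The calls depend on where 0 is set. If the 1811 promoter peaks with the highest level, the strongest promoters from here on, are centred on 0, every log2 change becomes 0.22 larger for old AThi and 0.31 larger for old ATlo, and 91 guidance peaks are higher and 6 lower in old AThi HSCs and 108 higher and 2 lower in old ATlo HSCs. The rises are then 18.1% of guidance peaks in old AThi HSCs, beside 13.3% of all peaks, and 21.5% in old ATlo HSCs, beside 16.9%.

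**Figure D1:**
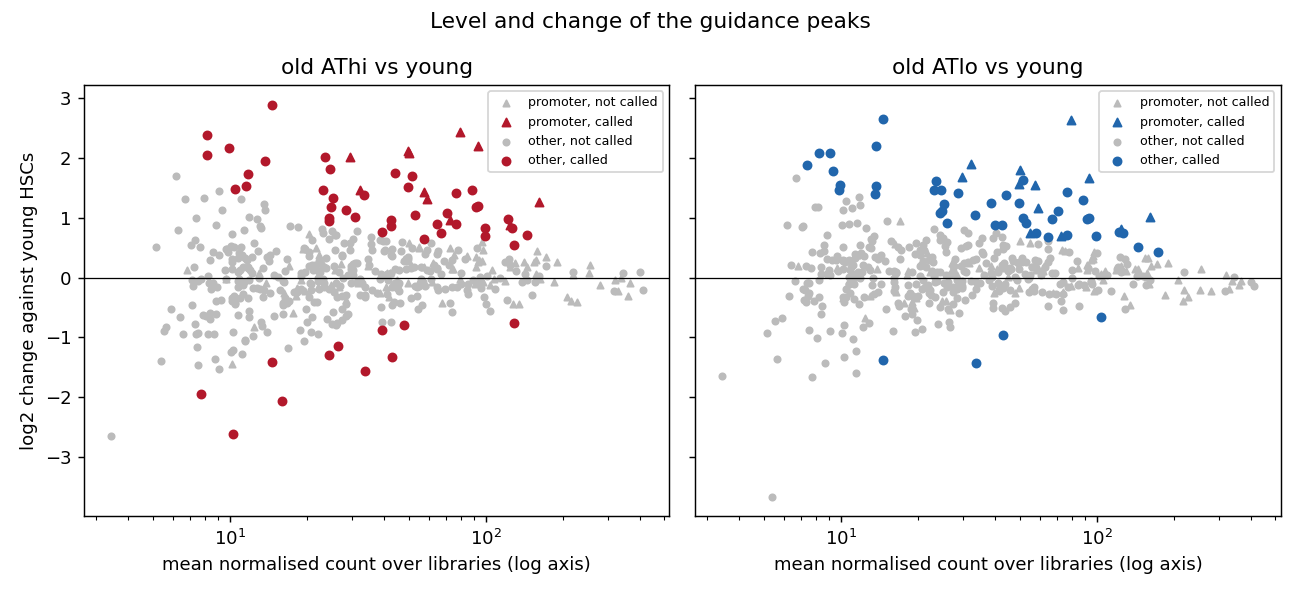
Log2 change against young HSCs (y axis) plotted against the mean normalised count over libraries (x axis, log scale) for the 503 guidance peaks, in old AThi HSCs on the left and old ATlo HSCs on the right, with called peaks in colour and promoter peaks as triangles. Called rises sit mostly at middle levels, and the 20 peaks with the highest counts hold 0 calls in old AThi HSCs and 1 in old ATlo HSCs.

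Every called promoter peak of a guidance gene was higher in old HSCs. Of 101 promoter peaks, 11 rose and 0 fell in old AThi HSCs (10.9% and 0.0%, beside 7.36% and 4.62% of all promoter peaks). In old ATlo HSCs 12 rose and 0 fell (11.9% and 0.0%, beside 5.77% and 6.9%). Peaks 1 to 3 kb from a start followed the same pattern, with 6 of 37 higher in old AThi HSCs (16.2%, beside 6.18% of all such peaks) and 5 in old ATlo HSCs (13.5%, beside 5.38%). None of them fell, beside 3.76% and 2.48% of all such peaks. Of 182 intron peaks 20 rose and 5 fell in old AThi HSCs, beside 7.46% and 2.17% of all intron peaks, and 20 rose and 1 fell in old ATlo HSCs, beside 7.09% and 1.31%. Of 152 distal intergenic peaks 13 rose and 3 fell in old AThi HSCs (8.55% and 1.97%, beside 7.75% and 2.04%), and 15 rose and 1 fell in old ATlo HSCs (9.87% and 0.658%, beside 7.22% and 1.36%). The level of a promoter moves with these shares and was looked at beside them. When all promoter peaks are cut into 3 equal parts by mean normalised count, at 69.8 and 188.3, the guidance promoters fall as 50, 38 and 13 from low to high. The rises in old AThi HSCs numbered 6, 5 and 0 in those parts and in old ATlo HSCs 7, 5 and 0. In the middle part this is 13.2% in each. Over all promoter peaks of the low and middle parts, 7.71% and 11.2% rose in old AThi HSCs and 7.37% and 8.17% in old ATlo HSCs. Over all promoter peaks of the high part, 3.12% rose and 8.2% fell in old AThi HSCs and 1.71% rose and 15.4% fell in old ATlo HSCs, and this part holds few guidance promoters. The 20 guidance peaks with the highest mean normalised counts, at least 173.0, included 14 promoters, and their log2 changes ran from -0.40 to 0.27 in old AThi HSCs and from -0.40 to 0.43 in old ATlo HSCs in the authors' deposited tables. In the low and middle parts, 1.89% and 3.71% of all promoter peaks fell in old AThi HSCs and 1.16% and 4.09% in old ATlo HSCs.

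**Figure D2:**
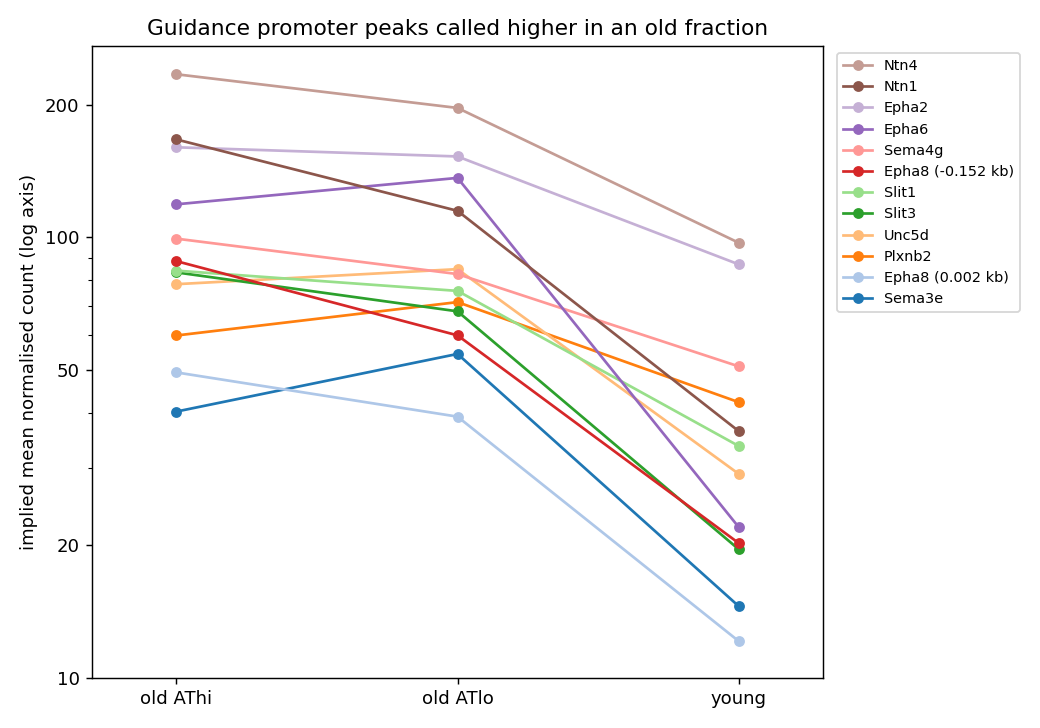
Implied mean normalised count (y axis, log scale) of the 12 guidance promoter peaks called higher in at least 1 old fraction, in old AThi, old ATlo and young HSCs, with each line a peak and no error bars because the tables hold no value per library. Every line is lowest in young HSCs, and the largest log2 change is at Epha6 in both old fractions, followed by Ntn1, Epha8 and Slit3 in old AThi HSCs and by Sema3e and Slit3 in old ATlo HSCs.

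Among the Eph receptors, 10 of 68 peaks rose and 1 fell in old AThi HSCs (14.7% and 1.47%, beside 7.57% and 2.74% of all peaks). The old ATlo counts were 9 rises and 0 falls (13.2% and 0.0%, beside 6.88% and 2.54%). Their implied counts summed over the 69 peaks to 4497 in old AThi HSCs, 4430 in old ATlo HSCs and 3875 in young HSCs. The largest called promoter rises of the family were at Epha6 and Epha8, both receptors of the A class that is named for its main ligands, the ephrin-As. Peaks of Epha2, Epha3 and Epha7 also rose. The Epha6 promoter (chr16:60425422-60427017) had an implied count of 119 in old AThi HSCs and 137 in old ATlo HSCs, against 22.0 in young HSCs. The old fractions lay close together and far above the young level. The log2 change was 2.43 (SE 0.23, adjusted p = 2.61e-23) in old AThi HSCs and 2.63 (SE 0.22, adjusted p = 1.43e-28) in old ATlo HSCs in the authors' deposited tables. The other Epha6 peak, in intron 3 of the gene and 372 kb from its start, was weak, with 14.1 in old AThi HSCs and 11.4 in old ATlo HSCs, against 2.70 in young HSCs. It also rose, by log2 2.38 (SE 0.64, adjusted p = 0.00398) in old AThi HSCs and 2.08 (SE 0.64, adjusted p = 0.0179) in old ATlo HSCs in the authors' deposited tables, so both Epha6 peaks were called.

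At Epha8 all 3 peaks rose in old AThi HSCs and 2 of them in old ATlo HSCs. The promoter peak at chr4:136684279-136684677, just before the start, had an implied count of 88.3 in old AThi HSCs and 59.9 in old ATlo HSCs, against 20.2 in young HSCs. The authors' deposited tables gave it log2 changes of 2.13 (SE 0.26, adjusted p = 7.83e-14) in old AThi HSCs and 1.57 (SE 0.26, adjusted p = 3.51e-07) in old ATlo HSCs. Its old fractions stood further apart than those of Epha6, with a log2 difference of 0.56 (SE 0.27) between old AThi and old ATlo, an unadjusted p of 0.0364 and an adjusted p of 1 in the authors' deposited table. A neighbouring peak over the start (chr4:136683751-136684125) had 49.4 in old AThi HSCs and 39.2 in old ATlo HSCs, against 12.1 in young HSCs, and rose in both fractions. The promoter of Epha2, a receptor best known from epithelial and endothelial cells, rose less, with 160 in old AThi HSCs and 153 in old ATlo HSCs, against 86.9 in young HSCs. The log2 changes at Epha2 were 0.88 (SE 0.19, adjusted p = 7.52e-05) in old AThi HSCs and 0.81 (SE 0.18, adjusted p = 0.000359) in old ATlo HSCs in the authors' deposited tables. 

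Other Eph receptor genes changed away from the promoter or not at all. A peak in intron 3 of Epha3 (chr16:63478649-63479564, 205 kb from the start) had 75.6 in old AThi HSCs and 62.7 in old ATlo HSCs, against 26.3 in young HSCs, while the Epha3 promoter had 42.4 in old AThi HSCs and 34.5 in old ATlo HSCs, against 41.4 in young HSCs, and was not called. The intron peak rose by log2 1.52 (SE 0.25, adjusted p = 7.58e-08) in old AThi HSCs and 1.25 (SE 0.25, adjusted p = 2.55e-05) in old ATlo HSCs in the authors' deposited tables. Epha7 held calls in both directions. A peak 1.75 kb from its start rose, with 185 in old AThi HSCs and 162 in old ATlo HSCs, against 113 in young HSCs, and a weak peak in its intron 5 fell in old AThi HSCs, with 2.77 there and 6.77 in old ATlo HSCs, against 17.0 in young HSCs. That fall was log2 -2.61 (SE 0.72, adjusted p = 0.0055) in old AThi HSCs in the authors' deposited table, and the value of -1.32 (SE 0.53, adjusted p = 0.0961) in old ATlo HSCs was not called. The Epha7 promoter itself was flat, with 314 in old AThi HSCs and 330 in old ATlo HSCs, against 322 in young HSCs. At Epha5 (chr5:84563782-84565717) the promoter had 355 in old AThi HSCs and 363 in old ATlo HSCs, against 375 in young HSCs. Its log2 change of -0.08 (SE 0.17) in old AThi HSCs had a 95% interval of -0.42 to 0.26, and that of -0.05 (SE 0.17) in old ATlo HSCs an interval of -0.38 to 0.29, from the authors' deposited tables. The B class receptors, which bind the transmembrane ephrin-Bs, had 1 call among the 5 genes Ephb1, Ephb2, Ephb3, Ephb4 and Ephb6, an intron 1 peak of Ephb2 with 44.5 in old AThi HSCs and 31.8 in old ATlo HSCs, against 22.1 in young HSCs, called in old AThi HSCs alone. There the difference between old AThi and old ATlo HSCs had an unadjusted p of 0.155 in the authors' deposited table.

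The ephrins had 5 higher and 0 lower of 81 peaks in old AThi HSCs (6.17% higher, beside 7.57% of all peaks). They had 9 higher and 1 lower in old ATlo HSCs (11.1% and 1.23%, beside 6.88% and 2.54%). None of the ephrin promoters was called. The rises in old AThi HSCs lay next to promoters or further out, at the ephrin-A ligand genes Efna1, Efna2 and Efna3 and at Efnb2, a transmembrane ligand known from arteries. The same 5 peaks rose in old ATlo HSCs, where the other 4 rises were at 2 distal peaks of Efnb2, an intron 1 peak of Efna5 and a weak distal peak of Efnb1, another transmembrane ligand. The Efnb1 peak had 8.45 in old AThi HSCs and 17.3 in old ATlo HSCs, against 6.23 in young HSCs. Its old ATlo change in the authors' deposited table was log2 1.47 (SE 0.49), called at an adjusted p of 0.032. A peak 1.05 kb before the Efna1 start (chr3:89189308-89189586) had 132 in old AThi HSCs and 114 in old ATlo HSCs, against 57.2 in young HSCs. It rose by log2 1.21 (SE 0.21, adjusted p = 4.67e-07) in old AThi HSCs and 1.00 (SE 0.21, adjusted p = 7.01e-05) in old ATlo HSCs in the authors' deposited tables, whereas the Efna1 promoter had 113 in old AThi HSCs and 101 in old ATlo HSCs, against 104 in young HSCs. Efna3 lies in the same stretch of chromosome 3, and a peak annotated to its 5′ UTR (chr3:89223711-89224044) had 71.7 in old AThi HSCs and 55.5 in old ATlo HSCs, against 21.3 in young HSCs. The log2 changes at Efna3 were 1.75 (SE 0.28, adjusted p = 5.14e-08) in old AThi HSCs and 1.38 (SE 0.28, adjusted p = 6.26e-05) in old ATlo HSCs in the authors' deposited tables. Near Efna2, a distal peak (chr10:80026204-80027107) had 130 in old AThi HSCs and 113 in old ATlo HSCs, against 57.0 in young HSCs. Its log2 changes were 1.19 (SE 0.21, adjusted p = 1.09e-06) in old AThi HSCs and 0.98 (SE 0.21, adjusted p = 0.000125) in old ATlo HSCs in the authors' deposited tables.

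Efnb2 set a flat promoter beside a changed flank. Its promoter (chr8:8710743-8712205) had 342 in old AThi HSCs and 329 in old ATlo HSCs, against 341 in young HSCs, with log2 values of 0.0036 (SE 0.13) in old AThi HSCs and -0.05 (SE 0.13) in old ATlo HSCs in the authors' deposited tables. A peak 2.06 kb into the gene (chr8:8708888-8709178) had 165 in old AThi HSCs and 143 in old ATlo HSCs, against 84.0 in young HSCs, and rose by log2 0.98 (SE 0.20, adjusted p = 5.83e-05) in old AThi HSCs and 0.76 (SE 0.20, adjusted p = 0.00395) in old ATlo HSCs in the authors' deposited tables. Efna5, the ephrin gene with the most peaks, had 0 of 26 called in old AThi HSCs. In old ATlo HSCs it had 1 rise and the only ephrin fall, a peak in intron 1 (chr17:63151150-63151924) with 87.0 in old AThi HSCs and 81.8 in old ATlo HSCs, against 128 in young HSCs. The fall was log2 -0.65 (SE 0.20, adjusted p = 0.0199) in old ATlo HSCs in the authors' deposited table, against -0.56 (SE 0.21, adjusted p = 0.0585) in old AThi HSCs. With the strongest promoters centred on 0 the Efna5 call is lost, at log2 -0.34 and an adjusted p of 0.275.

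**Figure D3:**
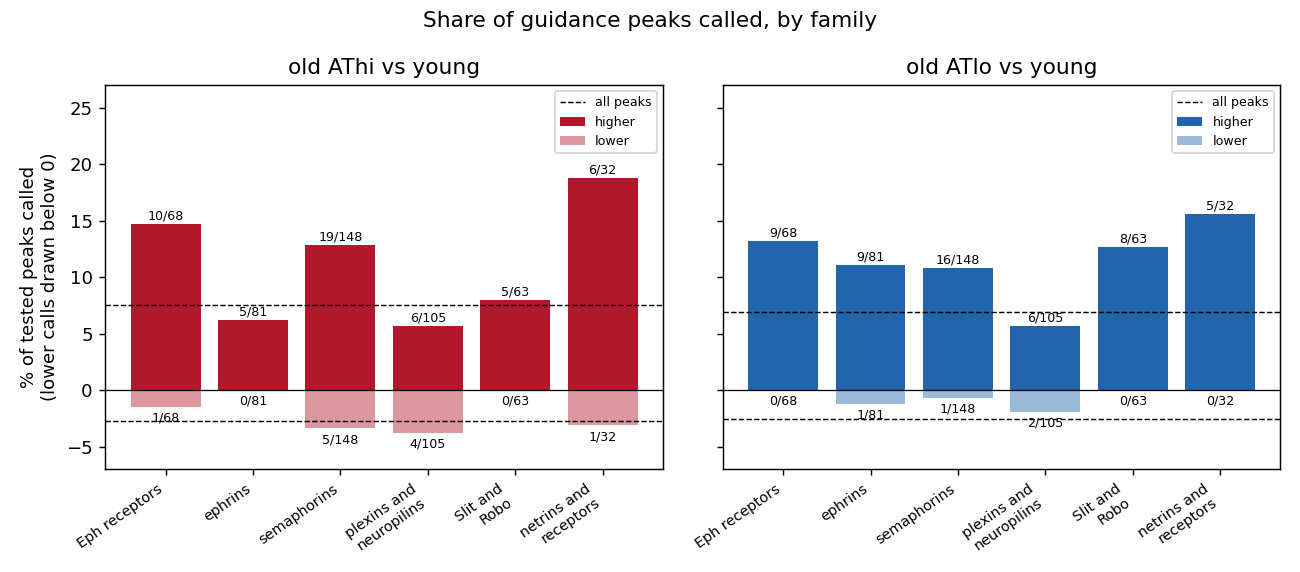
Percentage of tested peaks called (y axis, lower calls drawn below 0) in each of the 6 families, for old AThi against young HSCs on the left and old ATlo against young HSCs on the right, with dashed lines at the shares over all peaks and the counts written at the bars. Eph receptors, semaphorins, Slit and Robo genes and netrins stood above the dashed line for rises on both sides, Slit and Robo genes by little in old AThi HSCs. Ephrins stood above it in old ATlo HSCs alone, and plexins and neuropilins stood below it on both.

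Semaphorins, the family with the most peaks, had 19 higher and 5 lower of 148 peaks in old AThi HSCs (12.8% and 3.38%, beside 7.57% and 2.74% of all peaks). Against young HSCs, old ATlo HSCs had 16 higher and 1 lower (10.8% and 0.676%, beside 6.88% and 2.54%). The secreted ligand Sema3e, which binds plexin D1 without a neuropilin, had 3 peaks, of which 3 rose in old AThi HSCs and 2 in old ATlo HSCs. Its promoter (chr5:14075154-14076022) had 40.2 in old AThi HSCs and 54.4 in old ATlo HSCs, against 14.5 in young HSCs. The promoter change was log2 1.47 (SE 0.36, adjusted p = 0.00127) in old AThi HSCs and 1.90 (SE 0.35, adjusted p = 3.57e-06) in old ATlo HSCs in the authors' deposited tables. A peak in intron 10 (chr5:14280790-14281406) had 40.0 in old AThi HSCs and 30.2 in old ATlo HSCs, against 9.82 in young HSCs, and rose by log2 2.03 (SE 0.40, adjusted p = 2.46e-05) in old AThi HSCs and 1.62 (SE 0.41, adjusted p = 0.00204) in old ATlo HSCs in the authors' deposited tables. The order of the old fractions was opposite at these Sema3e peaks, and neither difference between them passed, with unadjusted p-values of 0.241 and 0.331 in the authors' deposited table.

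Sema3a, the secreted ligand that binds neuropilin 1, rose at intron peaks, and in old ATlo HSCs also at a distal peak, but not at its promoter. The peak in intron 7 (chr5:13576920-13577652) had 92.3 in old AThi HSCs and 94.6 in old ATlo HSCs, against 43.5 in young HSCs, whereas the promoter had 58.1 in old AThi HSCs and 66.6 in old ATlo HSCs, against 61.3 in young HSCs. The intron 7 peak rose by log2 1.09 (SE 0.23, adjusted p = 5.93e-05) in old AThi HSCs and 1.12 (SE 0.22, adjusted p = 2.28e-05) in old ATlo HSCs in the authors' deposited tables. Among membrane-bound semaphorins, a peak in intron 5 of Sema6d (chr2:124458521-124459229) had 106 in old AThi HSCs and 108 in old ATlo HSCs, against 39.9 in young HSCs. Sema6d, a ligand of plexin A1, had 24 peaks, of which 4 rose in old AThi HSCs and 3 in old ATlo HSCs. The intron 5 peak rose by log2 1.41 (SE 0.23, adjusted p = 6.11e-08) in old AThi HSCs and 1.44 (SE 0.22, adjusted p = 2.72e-08) in old ATlo HSCs in the authors' deposited tables. Sema7a, a membrane-anchored semaphorin that also binds integrins, rose at a distal peak (chr9:57872545-57873540) with 76.3 in old AThi HSCs and 72.9 in old ATlo HSCs, against 23.6 in young HSCs. These Sema7a values gave log2 1.70 (SE 0.26, adjusted p = 7.87e-09) in old AThi HSCs and 1.63 (SE 0.26, adjusted p = 3.27e-08) in old ATlo HSCs in the authors' deposited tables, and the gene's strongest promoter peak was not called, at 164 in old AThi HSCs and 152 in old ATlo HSCs, against 163 in young HSCs. Sema6a rose at 3 of 18 peaks in each old fraction, none of them at its promoter. The Sema4g promoter (chr19:44977122-44978127), the gene's sole peak, had 99.3 in old AThi HSCs and 82.6 in old ATlo HSCs, against 51.0 in young HSCs, and rose in both.

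The semaphorin falls lay outside promoters, and most were called in old AThi HSCs alone. Sema4c and Sema4d code for membrane-bound ligands of plexin B receptors, and Sema4b for a related membrane-bound semaphorin. A peak assigned to Sema4c but lying in intron 3 of Fam178b (chr1:36610642-36611217) had 5.75 in old AThi HSCs and 12.9 in old ATlo HSCs, against 24.0 in young HSCs. It fell by log2 -2.06 (SE 0.52, adjusted p = 0.00179) in old AThi HSCs, and -0.89 (SE 0.40, adjusted p = 0.151) in old ATlo HSCs was not called, in the authors' deposited tables. A peak annotated to the 3′ UTR of Sema4d had 13.1 in old AThi HSCs and 23.0 in old ATlo HSCs, against 32.1 in young HSCs, with log2 -1.29 (SE 0.37, adjusted p = 0.00917) in old AThi HSCs and -0.48 (SE 0.31, adjusted p = 0.379) in old ATlo HSCs in the authors' deposited tables. In both cases the old ATlo level lay between the other groups, and the difference between the old fractions had an adjusted p of 1 in the authors' deposited table. Intron 2 of Sema4b held a fall with 16.2 in old AThi HSCs and 21.3 in old ATlo HSCs, against 35.7 in young HSCs, and a distal peak of Sema3g held another with 26.7 in old AThi HSCs and 36.4 in old ATlo HSCs, against 48.8 in young HSCs. Sema4b held calls in both directions, as 2 of its other peaks rose in old AThi HSCs and 0 in old ATlo HSCs. In the authors' deposited table these were a distal peak (log2 0.90, SE 0.24, adjusted p = 0.00318) and a peak 1 to 3 kb from the start (log2 0.86, SE 0.27, adjusted p = 0.0207). Exon 10 of Sema6b had 8.32 in old AThi HSCs and 8.49 in old ATlo HSCs, against 22.0 in young HSCs, and fell in both old fractions. With the strongest promoters centred on 0 the falls at Sema4b, Sema3g and Sema6b are no longer called, with adjusted p-values of 0.0684, 0.155 and 0.084 in old AThi HSCs and 0.0912 for Sema6b in old ATlo HSCs. The Sema3g call is also lost when the median of all peaks is set to 0, with an adjusted p of 0.0604. The semaphorin promoter with the highest level, that of Sema4c, had 306 in old AThi HSCs and 313 in old ATlo HSCs, against 356 in young HSCs, and was not called.

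**Figure D4:**
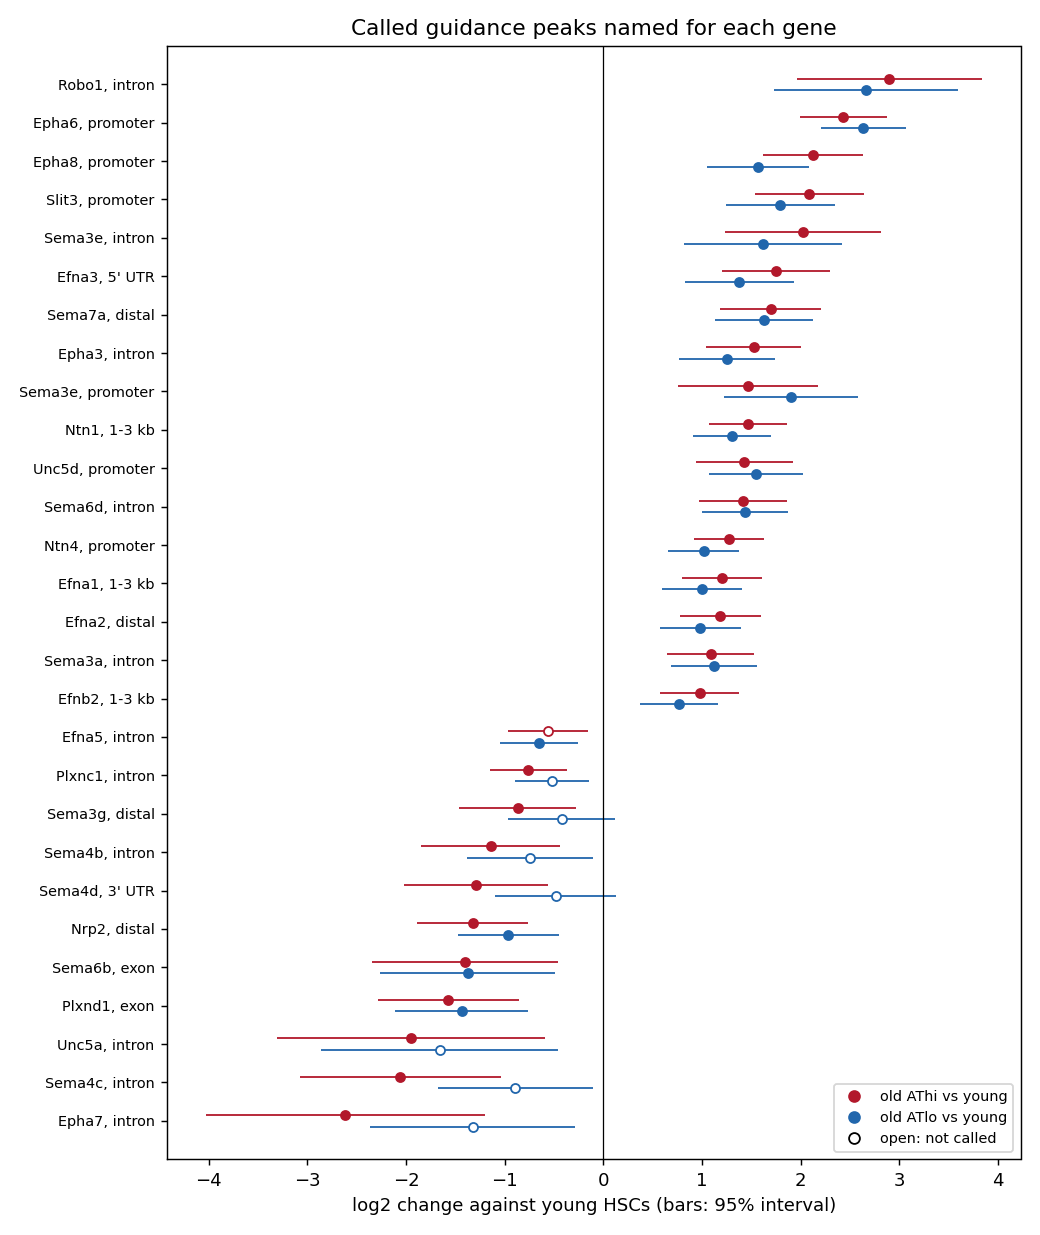
Log2 change against young HSCs (x axis) with 95% intervals for 28 guidance peaks called in at least 1 comparison, taken as the smallest p per gene and direction within the limit of 15 genes, with old AThi in red drawn above old ATlo in blue and open points where the change was not called. Every rise shown has both fractions on the same side, and most falls are filled for old AThi and open for old ATlo.

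Plexins and neuropilins, the receptors of semaphorins, had 6 higher and 4 lower of 105 peaks in old AThi HSCs (5.71% and 3.81%, beside 7.57% and 2.74% of all peaks). The old ATlo counts were 6 higher and 2 lower (5.71% and 1.9%, beside 6.88% and 2.54%). Their implied counts summed to 5116 in old AThi HSCs, 5184 in old ATlo HSCs and 5214 in young HSCs, so the sums lay close together. Nrp2, the neuropilin that also serves as a co-receptor of lymphatic growth factors, changed in both directions. A distal peak upstream of its start (chr1:62717793-62718509) had 24.4 in old AThi HSCs and 31.3 in old ATlo HSCs, against 61.0 in young HSCs. It fell by log2 -1.32 (SE 0.29, adjusted p = 0.000161) in old AThi HSCs and -0.96 (SE 0.26, adjusted p = 0.00516) in old ATlo HSCs in the authors' deposited tables, and with the strongest promoters centred on 0 the old ATlo call is lost at an adjusted p of 0.0661. A peak 2.99 kb from the start (chr1:62745467-62746432) had 162 in old AThi HSCs and 153 in old ATlo HSCs, against 90.7 in young HSCs, and rose in both, while the Nrp2 promoter had 144 in old AThi HSCs and 131 in old ATlo HSCs, against 121 in young HSCs, and was not called. Exon 10 of Plxnd1, the gene of the Sema3e receptor, held a peak (chr6:115946706-115947241) with 17.5 in old AThi HSCs and 19.2 in old ATlo HSCs, against 52.0 in young HSCs. This peak fell by log2 -1.57 (SE 0.36, adjusted p = 0.000508) in old AThi HSCs and -1.44 (SE 0.34, adjusted p = 0.00102) in old ATlo HSCs in the authors' deposited tables.

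Plxnc1, the receptor of Sema7a, had 23 peaks, the most of its family, with 1 rise and 2 falls in old AThi HSCs and 1 rise alone in old ATlo HSCs. The rise was at a distal peak (chr10:94802492-94803037) with 71.7 in old AThi HSCs and 65.1 in old ATlo HSCs, against 34.5 in young HSCs. Its log2 changes were 1.06 (SE 0.28, adjusted p = 0.00379) in old AThi HSCs and 0.92 (SE 0.28, adjusted p = 0.0171) in old ATlo HSCs in the authors' deposited tables. The falls were at an intron peak and a distal peak. The intron 20 peak of Plxnc1 (chr10:94663826-94664925) had 94.9 in old AThi HSCs and 112 in old ATlo HSCs, against 161 in young HSCs. The log2 change there was -0.76 (SE 0.20, adjusted p = 0.00295) in old AThi HSCs and -0.52 (SE 0.19, adjusted p = 0.0591, not called) in old ATlo HSCs in the authors' deposited tables. The Plxnc1 promoter, the plexin promoter with the highest level, had 188 in old AThi HSCs and 163 in old ATlo HSCs, against 198 in young HSCs, and was not called. Plxna4, a receptor of Sema3a together with neuropilin 1, rose at intron 1 (chr6:32527568-32528164) with 40.0 in old AThi HSCs and 31.6 in old ATlo HSCs, against 11.4 in young HSCs. The sole plexin promoter call was at 1 of the 3 promoter peaks of Plxnb2 (chr15:89057821-89058459), with 59.9 in old AThi HSCs and 71.3 in old ATlo HSCs, against 42.3 in young HSCs. It rose by log2 0.75 (SE 0.23, adjusted p = 0.0141) in old ATlo HSCs, and 0.50 (SE 0.24, adjusted p = 0.176) in old AThi HSCs was not called, in the authors' deposited tables. None of the 14 peaks of Plxna1 and none of the 3 peaks of Nrp1 was called in either comparison.

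Slit and Robo genes had 5 higher and 0 lower of 63 peaks in old AThi HSCs and 8 higher and 0 lower in old ATlo HSCs. In old AThi HSCs this is 7.94% higher, beside 7.57% of all peaks, and in old ATlo HSCs 12.7%, beside 6.88%. The share in old AThi HSCs was near that of all peaks. The Slit3 promoter (chr11:35012094-35012642) had 83.3 in old AThi HSCs and 67.9 in old ATlo HSCs, against 19.6 in young HSCs. It rose by log2 2.09 (SE 0.28, adjusted p = 2.25e-11) in old AThi HSCs and 1.79 (SE 0.28, adjusted p = 3.06e-08) in old ATlo HSCs in the authors' deposited tables. The Slit1 promoter (chr19:41731630-41732539) had 84.0 in old AThi HSCs and 75.6 in old ATlo HSCs, against 33.6 in young HSCs, and rose by log2 1.32 (SE 0.28, adjusted p = 8.01e-05) in old AThi HSCs and 1.17 (SE 0.28, adjusted p = 0.000822) in old ATlo HSCs in the authors' deposited tables. Slit2 behaved otherwise, as its promoter had 161 in old AThi HSCs and 156 in old ATlo HSCs, against 155 in young HSCs, and 0 of its 16 peaks were called in either comparison. Intron peaks of the Slit genes rose too. Intron 4 of Slit1 had 77.2 in old AThi HSCs and 91.2 in old ATlo HSCs, against 46.1 in young HSCs. Intron 3 of Slit3 had 40.8 in old AThi HSCs and 55.6 in old ATlo HSCs, against 30.1 in young HSCs. The Slit1 intron was called in both old fractions and that of Slit3 in old ATlo HSCs alone (adjusted p = 0.0166 there and 0.379 in old AThi HSCs, in the authors' deposited tables). None of the Robo promoters was called. A weak peak in intron 23 of Robo1 (chr16:72807832-72808386, 348 kb from the start) had 26.0 in old AThi HSCs and 22.0 in old ATlo HSCs, against 3.49 in young HSCs. With log2 2.90 (SE 0.48, adjusted p = 1.23e-07) in old AThi HSCs and 2.66 (SE 0.48, adjusted p = 2.33e-06) in old ATlo HSCs in the authors' deposited tables, it had the largest called rise of any guidance peak in either comparison. The Robo1 promoter had 154 in old AThi HSCs and 151 in old ATlo HSCs, against 137 in young HSCs. The Robo3 promoter, the strongest of the family, had 154 in old AThi HSCs and 180 in old ATlo HSCs, against 157 in young HSCs, and is called in old ATlo HSCs when the strongest promoters are centred on 0, with an adjusted p of 0.00774.

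Netrins and their receptors had 6 higher and 1 lower of 32 peaks in old AThi HSCs (18.8% and 3.12%, beside 7.57% and 2.74% of all peaks). There were 5 higher and 0 lower in old ATlo HSCs (15.6% and 0.0%, beside 6.88% and 2.54%). The netrin ligands held most of these calls. Over all 32 peaks of the netrins and their receptors, the implied counts summed to 2184 in old AThi HSCs, 2012 in old ATlo HSCs and 1593 in young HSCs. Ntn1, the ligand of Dcc and the Unc5 receptors, rose at 4 of 9 peaks in old AThi HSCs and at 3 in old ATlo HSCs. The peak 1.21 kb into the gene (chr11:68275911-68276439) had 130 in old AThi HSCs and 116 in old ATlo HSCs, against 47.2 in young HSCs, with log2 1.46 (SE 0.20, adjusted p = 8.41e-11) in old AThi HSCs and 1.30 (SE 0.20, adjusted p = 1.57e-08) in old ATlo HSCs in the authors' deposited tables. Ntn1 had 2 promoter peaks, of which 1 was not called in either comparison. Its log2 changes were 0.08 (SE 0.27) in old AThi HSCs and -0.16 (SE 0.26) in old ATlo HSCs in the authors' deposited tables. The other promoter peak (chr11:68276788-68277335), beside the peak 1.21 kb into the gene, had 167 in old AThi HSCs and 115 in old ATlo HSCs, against 36.3 in young HSCs. Its change was larger and less precise, with log2 2.20 (SE 0.39, adjusted p = 1.44e-06) in old AThi HSCs and 1.66 (SE 0.39, adjusted p = 0.000898) in old ATlo HSCs in the authors' deposited tables. Its mean normalised count was 93.4, and its SE was close to that of the Sema3e intron 10 peak, whose mean normalised count was 23.6.

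Ntn4, a netrin found in basement membranes, has a single peak, at its promoter (chr10:93476588-93478207). It had 235 in old AThi HSCs and 197 in old ATlo HSCs, against 97.3 in young HSCs. The rise was log2 1.27 (SE 0.18, adjusted p = 4.70e-10) in old AThi HSCs and 1.02 (SE 0.18, adjusted p = 2.22e-06) in old ATlo HSCs in the authors' deposited tables, and this was the called guidance promoter with the highest implied count in each group. Of the receptors, Unc5d rose at its promoter (chr8:29709161-29710100), with 78.3 in old AThi HSCs and 84.7 in old ATlo HSCs, against 29.0 in young HSCs. Its log2 changes were 1.43 (SE 0.25, adjusted p = 7.81e-07) in old AThi HSCs and 1.54 (SE 0.24, adjusted p = 3.98e-08) in old ATlo HSCs in the authors' deposited tables. The promoters of Unc5a, Unc5b, Unc5c and Dcc were not called, and the Unc5b promoter, the strongest of the family, had 235 in old AThi HSCs and 196 in old ATlo HSCs, against 227 in young HSCs. Intron 1 of Unc5a held the family's fall, with 3.26 in old AThi HSCs and 3.98 in old ATlo HSCs, against 12.6 in young HSCs. That call, at log2 -1.95 (SE 0.69, adjusted p = 0.048) in old AThi HSCs in the authors' deposited table, is lost with either other centring, at adjusted p-values of 0.0769 and 0.0555.

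**Figure D5:**
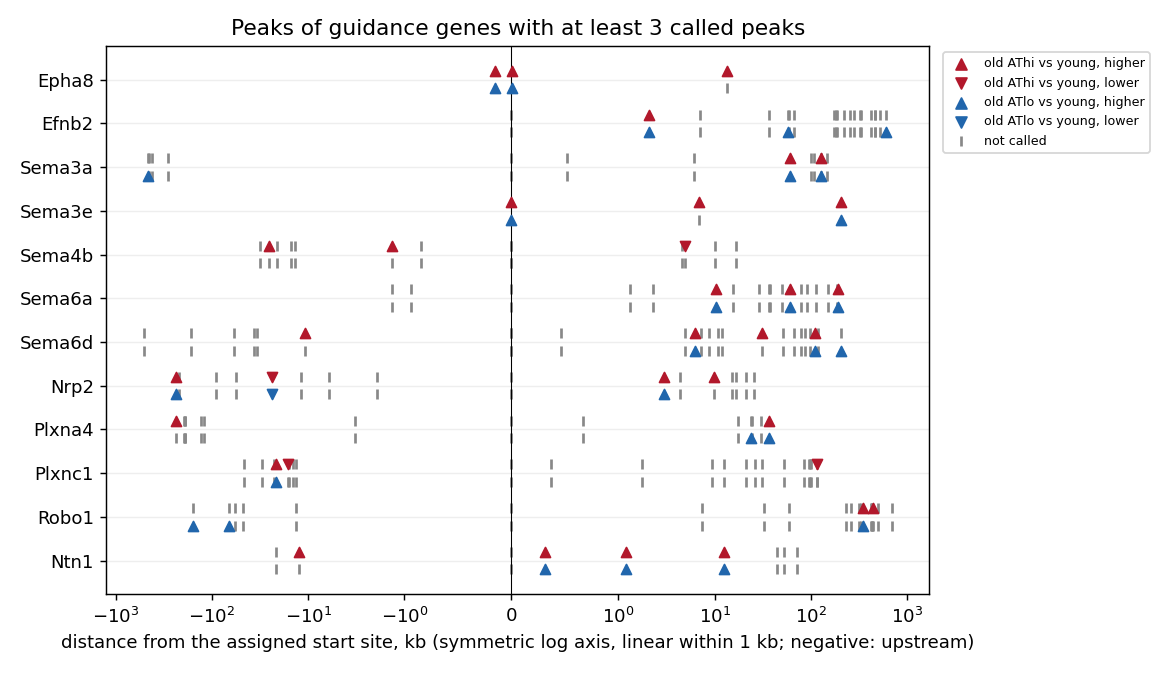
Positions of all peaks of the 12 guidance genes with at least 3 peaks called in either comparison, as distance from the assigned start site (x axis, kb, symmetric log scale, linear within 1 kb), with upward triangles for rises, downward triangles for falls and grey ticks for peaks not called, old AThi in red above old ATlo in blue. Epha8, Sema3e and Ntn1 have calls within 1 kb of the start, and the calls at Robo1, Sema3a, Sema6a and Plxnc1 all lie further than 10 kb from it.

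The old fractions were compared directly as well. Of the 503 guidance peaks 0 were called between old AThi and old ATlo HSCs, as were 0 of all 94410 peaks (0.0%), and every adjusted p was 1 in the authors' deposited table. An unadjusted p under 0.05 was found for 9 guidance peaks (1.79%), beside 1.78% of all peaks. Both shares are smaller than the 0.05 that the threshold would give with no difference at all, so small p-values were scarce in this comparison. Whether the fit used the pairing of the old libraries is not stated. The lack of calls therefore does not show that the old fractions are alike. The median log2 difference over guidance peaks was -0.02, with a median SE of 0.37 per peak, in the authors' deposited table. The smallest p was at a distal peak upstream of Plxna4 (chr6:32756746-32757092), which had 21.9 in old AThi HSCs and 6.59 in old ATlo HSCs, and the authors' deposited table gave a log2 difference of 1.73 (SE 0.53) at an unadjusted p of 0.00116 and an adjusted p of 1. Next among the higher ones came a distal Plxnc1 peak with 31.9 in old AThi HSCs and 16.7 in old ATlo HSCs (log2 0.93, SE 0.39) and a Sema7a peak 0.887 kb from the start with 26.1 in old AThi HSCs and 13.3 in old ATlo HSCs (log2 0.98, SE 0.46), none passing in the authors' deposited table. Among the lower ones were intron 9 of Plxnc1 with 96.2 in old AThi HSCs and 141 in old ATlo HSCs (log2 -0.55, SE 0.21), the Sema4c peak in Fam178b (log2 -1.17, SE 0.58) and intron 1 of Robo2 with 4.06 in old AThi HSCs and 10.8 in old ATlo HSCs (log2 -1.42, SE 0.72), with no pass among these in the authors' deposited table. For the Epha6 promoter the difference was log2 -0.20 (SE 0.22), with a 95% interval of -0.62 to 0.23, in the authors' deposited table. Calls made against young HSCs in only 1 old fraction are thus not shown to differ between the fractions.

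Genes that act with these ligands and receptors were set beside them. Of 57 partners and effectors, such as the kinases Fyn and Src, the Rac activators Vav2 and Vav3, the collapsin response mediators Dpysl2 to Dpysl5 and the Slit-Robo GTPase activators, 56 had a peak and Rhoa had none assigned to it. A higher peak was called at 25 of them in old AThi HSCs and a lower peak at 11, with 6 in both counts and 26 in neither. In old ATlo HSCs the counts were 22 higher, 7 lower, 3 in both and 30 in neither. The shares of all genes with a called peak were those given above, 23.9% higher and 10.6% lower in old AThi HSCs and 21.9% higher and 10.1% lower in old ATlo HSCs. Counts by gene again favour genes with many peaks. Of the 419 tested partner peaks, 8.11% rose and 2.63% fell in old AThi HSCs, beside 7.57% and 2.74% of all peaks. For old ATlo HSCs the shares were 6.92% and 2.15%, beside 6.88% and 2.54%. By peak, the partners thus lay near the shares of all peaks, although by gene their rises stood above the shares of all genes in both old fractions. A share by gene above that of all genes can thus occur without a matching excess by peak. Over their 426 peaks the median log2 change was 0.02 in old AThi HSCs and 0.04 in old ATlo HSCs in the authors' deposited tables, and the summed implied counts of 26620 in old AThi HSCs, 26000 in old ATlo HSCs and 26180 in young HSCs lay close together. The promoter of Dscam, a cell adhesion molecule that also binds netrin, had 135 in old AThi HSCs and 116 in old ATlo HSCs, against 35.4 in young HSCs. Dscam rose by log2 1.93 (SE 0.25, adjusted p = 3.40e-12) in old AThi HSCs and 1.70 (SE 0.25, adjusted p = 2.27e-09) in old ATlo HSCs in the authors' deposited tables. The promoter of Rgma, a repulsive ligand of neogenin, had 294 in old AThi HSCs and 250 in old ATlo HSCs, against 132 in young HSCs, and its rise in old AThi HSCs was log2 1.15 (SE 0.17) at an adjusted p of 7.38e-10 in the authors' deposited table. A peak assigned to Dpysl4 but lying in exon 20 of Jakmip3 had 70.1 in old AThi HSCs and 59.0 in old ATlo HSCs, against 9.36 in young HSCs, which corresponds to log2 2.90 (SE 0.35, adjusted p = 4.79e-14) in old AThi HSCs and 2.65 (SE 0.35, adjusted p = 1.64e-11) in old ATlo HSCs in the authors' deposited tables. Intron 1 of Vav2 had 61.5 in old AThi HSCs and 50.0 in old ATlo HSCs, against 14.7 in young HSCs, and in the old ATlo comparison a distal peak of Mical2 and intron 2 of Farp1, of gene families that act downstream of plexins, rose by log2 1.98 (SE 0.32) for Mical2 and 1.85 (SE 0.32) for Farp1 in the authors' deposited table.

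The cell type was checked on marker genes, since guidance genes are known from neurons and vessels. All 12 HSC markers had a peak, 11 of them at the promoter, and their strongest promoter peaks had a median mean normalised count of 139. Of 144 tested peaks at HSC markers, 17 rose and 2 fell in old AThi HSCs (11.8% and 1.39%, beside 7.57% and 2.74% of all peaks). For old ATlo HSCs, 12 rose and 3 fell (8.33% and 2.08%, beside 6.88% and 2.54%). The 10 neuronal markers had 51 peaks, of which 10 rose and 0 fell in old AThi HSCs (19.6% higher) and 8 rose and 0 fell in old ATlo HSCs (15.7% higher), at 5 and 6 of the genes. Their summed implied counts were 2072 in old AThi HSCs, 2021 in old ATlo HSCs and 1614 in young HSCs, and the strongest neuronal promoters had a median of 30.7. For the 12 endothelial and stromal markers the sums were 3762 in old AThi HSCs, 3725 in old ATlo HSCs and 3363 in young HSCs, with 11 higher and 2 lower of 82 tested peaks in old AThi HSCs (13.4% and 2.44%) and 10 higher and 2 lower in old ATlo HSCs (12.2% and 2.44%). Myeloid markers had sums of 1139 in old AThi HSCs, 1049 in old ATlo HSCs and 1346 in young HSCs, with 0 higher and 2 lower of 26 peaks (7.69%) in each old fraction. Erythroid and megakaryocyte markers had 2 higher of 20 peaks in old AThi HSCs (10.0%) and 1 in old ATlo HSCs (5.0%). Lymphoid markers had 1 higher of 22 (4.55%) and 0. None of these fell. The strongest erythroid and megakaryocyte promoters had a median of 212, above that of the HSC markers, so promoter level alone did not single out HSC genes. The medians were 65.2 for endothelial and stromal, 26.1 for myeloid and 12.9 for lymphoid markers. No marker with a peak was at 0, as the tables list peaks alone, and the lowest mean normalised count was 6.41 for a neuronal and 4.10 for an endothelial or stromal marker. The part of other cell types in the guidance peaks was not tested.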

How the data were processed

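ATAC-seq libraries were made from purified bone marrow HSCs in 3 groups of 3, 3 and 5 libraries (old AThi, old ATlo, young). Transposition took 30 min at 37 °C and reads were 150 bp, per the labels. Alignment with BWA after trimming with cutadapt and Trim Galore, MACS2 peaks, ChIPseeker annotation, counting with featureCounts and DESeq2 are named in the submitters' processing notes, whose list has no settings or order. Read shifting, duplicate removal and peak merging, which set where peaks lie, are not stated there. The authors deposited 3 tables of their own comparisons over the same peaks. Per the file headers, each holds the mean normalised count over libraries, a signal averaged by the authors, together with the authors' log2 change, its SE, the Wald statistic, which is the authors' score, and the authors' p-value and adjusted p-value. With 0 columns of values per sample, no model was refitted, depth per library is unknown, and the authors' DESeq2 adjusted p under 0.05 took the place of a count test. An adjusted p was missing for 6 guidance peaks and for 1831 of all peaks, none above a mean normalised count of 5.96, and these peaks count as not called against young HSCs.

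Implied counts solve for 3 group means from the mean over 11 libraries and both log2 changes. The deposited SEs behave as if 4 young libraries entered, since the variance ratio of old over young at the 3 strongest peaks was 1.33, which 4 give, whereas 5 give 1.67. A term for the day with a young library alone on its day would look the same. Counting 4 moves an implied count of a guidance peak by at most 7.82%. Intervals are 1.96 SE on each side. The notes name GRCm38 and mm39. Peak coordinates, 1-based, were taken as mm39, since the tables' own start sites lay under 15.2% of peaks and RefSeq GRCm38.p6 starts under 1.55%. RefSeq gave symbols to 20791 of 20810 gene identifiers. Scripts used Python 3.11.15, pandas 2.3.3, numpy 2.4.6, scipy 1.17.1 and matplotlib 3.10.9, and were tested on simulated data.

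Members and lists were chosen with earlier results of these data known. Named genes are up to 15 per direction and comparison by smallest p, the 3 with the smallest p where fewer than 3 pass, the strongest promoter and the gene with most peaks of each family, all Epha6 peaks, and up to 4 partners per comparison with young. Further peaks and genes are examples picked with their values known. Alternatives changed the adjusted p threshold, the adjustment, the minimum level, the minimum fold, the centring, the distance, the class and peaks over other genes.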

Additional observations from a re-analysis of the deposited data

How the results depend on the processing

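No paired analysis was possible because the tables hold no value per sample, and for the same reason fits that leave out a library, use other size factors or filter counts were not run. In old AThi HSCs, the falls numbered 6 at an adjusted p under 0.01 and 20 at 0.1. With the strongest promoters (1811 peaks, mean normalised count at least 355.7) centred on 0, 97 guidance peaks passed in old AThi HSCs, made up of 91 rises and 6 falls, and 110 in old ATlo HSCs, made up of 108 rises and 2 falls. Promoter peaks alone gave 11 calls in old AThi HSCs (11 rises, 0 falls) and 12 in old ATlo HSCs (12 rises, 0 falls). In old ATlo HSCs an adjusted p under 0.01 left 35 calls (33 rises, 2 falls), a threshold of 0.1 gave 9 falls, and a minimum change of 2-fold left 36 calls (34 rises, 2 falls). The cause was not tested, beyond the fewer or shifted peaks that each setting makes. All other counts of calls stayed within 1.5 times of the reported ones, and the 0 calls between old AThi and old ATlo HSCs stayed 0 in every setting run. The median log2 change stayed above 0 in both comparisons with young, at 0.03 to 0.28 in old AThi HSCs and 0.07 to 0.42 in old ATlo HSCs. Either centring could only raise these medians, since it adds the same positive amount to every log2 change against young. With the strongest promoters centred on 0, the old AThi median of 0.28 stood beside 0.18 over all peaks. The median log2 difference between old AThi and old ATlo HSCs was -0.02, and turned to 0.01 at a mean normalised count of at least 20 and to 0.04 over promoter peaks. None of the named log2 changes reversed in a called comparison. Of 120 named changes, centring on the strongest promoters ended 7 calls, all falls, and added 3, centring on all peaks ended 2, and adjustment over every peak changed none. That the calls ended were falls follows from the direction of the shift, which raises every log2 change against young. Counting 4 young libraries was an alternative chosen after seeing the data. It moved no young implied count of the 40 named peaks, in log2, by more than the SE of that peak's old AThi change. The old implied counts were not checked in this way. The median SE of a guidance peak was 0.33 in old AThi HSCs.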
